A study of Mus musculus with 24 samples.

Results

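The 10 lens crystallin genes described here, of 22380 protein-coding genes counted, were followed through the 16 libraries. They are the alpha crystallin genes Cryaa and Cryab, the beta crystallin genes Cryba1, Cryba2, Cryba4, Crybb1 and Crybb3, and the gamma crystallin genes Crygc, Crygd and Crygs. The list was chosen by name with the fetal head against CCE difference of these libraries in view, so that difference is described here and not tested. RNA came from CCE mouse embryonic stem cells of strain 129/SvEv, differentiated with 0.266 µM retinoic acid for 5 days without LIF, and from whole FVB/N fetal heads (FH) at 14.5 dpc. Ribosomal RNA was removed with RiboMinus in 14 libraries, 8 of CCE and 6 of FH, and with Ribo-Zero in 1 library per tissue. The RiboMinus cDNA was made in 7 preparations, 4 of CCE and 3 of FH, from hydrolysed RNA or sheared cDNA, each sequenced in Vienna and in Nijmegen. The libraries held 920424 to 2473448 unique tags with RiboMinus, while the Ribo-Zero library of CCE held 28708715 and that of FH 48426051. CCE is 1 cell line whose preparations repeat the technical steps only, the sources do not say whether the FH preparations came from separate animals, and FH has a single sheared preparation, so p values measure the spread between preparations only. Per the study's methods both fragmentation methods were applied to the same depleted RNA, so that same-numbered preparations, such as FH1 sheared and FH1 hydrolysed, are not independent RNA samples, and the 3 FH and 4 CCE preparations stand for 2 such samples each. The FH2 hydrolysed preparation had 2 rounds of depletion and the others had 1. The paper describes 1 FH RiboMinus lane as most likely a technical outlier, by its composition of tags. By its place in the paper's lane order this is FH1 hydrolysed from Vienna, which was kept here.

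Crystallins are the soluble proteins that fill the fibre cells of the lens and give it its refractive power. The alpha crystallins belong to the small heat shock proteins and act as chaperones, and Cryab is also made in many tissues outside the lens, such as heart and muscle. The beta and gamma crystallins share a fold and form 1 superfamily of structural proteins, in which the gamma genes are switched on mainly in differentiating fibre cells. In a whole head the lens is a very small part of the tissue, and fewer lens cells and less crystallin RNA per lens cell cannot be told apart in such RNA.

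The gamma crystallin genes Cryga to Cryge lie side by side on mouse chromosome 1, with Crygf on the same chromosome, and they are near copies of each other, which decides what a short tag can count. The stretches below are the first 120 bases of the second coding exon of 6 of them (NCBIM37, the sequence of mm9), written in the direction of the gene with capitals where a base differs from Crygd. They are shown because the tags kept by the authors had to have a single place in the genome.
Crygd, chr1:65109756-65109875, minus strand: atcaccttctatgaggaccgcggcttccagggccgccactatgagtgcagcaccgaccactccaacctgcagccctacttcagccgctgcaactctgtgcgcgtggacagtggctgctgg
Cryge, chr1:65097467-65097586, minus strand: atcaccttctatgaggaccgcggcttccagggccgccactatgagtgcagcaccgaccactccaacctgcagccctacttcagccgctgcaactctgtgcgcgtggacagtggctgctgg
Crygf, chr1:65973222-65973341, plus strand: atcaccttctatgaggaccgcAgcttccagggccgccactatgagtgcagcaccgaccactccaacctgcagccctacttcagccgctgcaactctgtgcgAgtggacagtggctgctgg
Crygc, chr1:65119859-65119978, minus strand: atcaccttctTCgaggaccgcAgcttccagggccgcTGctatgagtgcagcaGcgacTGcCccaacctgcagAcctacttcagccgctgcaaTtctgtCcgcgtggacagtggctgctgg
Crygb, chr1:65128612-65128731, minus strand: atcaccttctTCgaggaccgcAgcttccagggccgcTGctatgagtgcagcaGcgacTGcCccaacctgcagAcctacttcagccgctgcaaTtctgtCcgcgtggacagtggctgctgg
Cryga, chr1:65149678-65149797, minus strand: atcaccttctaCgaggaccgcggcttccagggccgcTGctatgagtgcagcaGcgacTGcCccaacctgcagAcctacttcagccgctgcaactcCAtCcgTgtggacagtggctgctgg

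In these 120 bases Cryge had no difference from Crygd and Crygf had 2, while Crygc, Crygb and Cryga had 12 each. Over the whole exon of 243 bases, Crygd and Cryge were 99.2% identical and Crygc and Crygb 98.4%, with a longest identical run of 144 and 218 bases. A 36-base tag with up to 2 mismatches had a single place for 47.1% of the coding positions of Crygd and 52.7% of those of Crygc, against 99.5% in Crybb1 and 100% in the other 7 members. The second coding exon of Crygd had no position that such a tag reaches uniquely. Of the gamma genes outside the list, Cryga had 57.6% and Crygb 54.9% of unique coding positions, but Cryge had 2.39% and Crygf 6.09%.

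**Figure D1:**
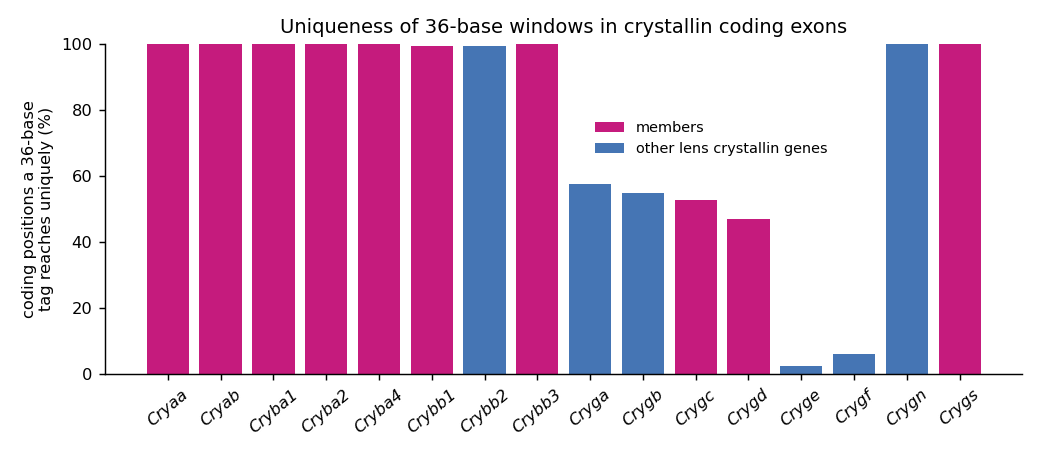
Share of coding positions (%) at which a 36-base tag has a single place in the genome with up to 2 mismatches, for the 10 members (pink) and 6 other lens crystallin genes (blue). Crygc (52.7%) and Crygd (47.1%) are the members that fall far below 100%.

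The tags followed these sequences. Over Cryga to Crygf, the FH Ribo-Zero library had 928 tags on 1914 unique windows of 51 bases, 42 on 701 windows with a near copy and 0 on 1063 windows with an exact copy. No RiboMinus library had a tag on any of the 1341 36-base windows with an exact copy. Levels of Crygc and Crygd from whole exons are therefore low counts over positions that could not be counted, and levels over uniquely reached coding positions are given beside them.

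In FH the 10 genes together had 358 to 603 CPM (tags scaled to the unique tags of the library) in the 6 RiboMinus libraries and 173 in the Ribo-Zero library. The 5 genes Crybb1, Cryaa, Cryba1, Cryba4 and Crybb3 had mean exon levels of 58.1 to 79.9 RPKM (tags scaled to the length of the exons and to the unique tags of the library). Cryba2 was lower, Crygc, Crygd and Cryab were lower again, and Crygs was near 0. The plot of levels by library shows all of these values.

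**Figure D2:**
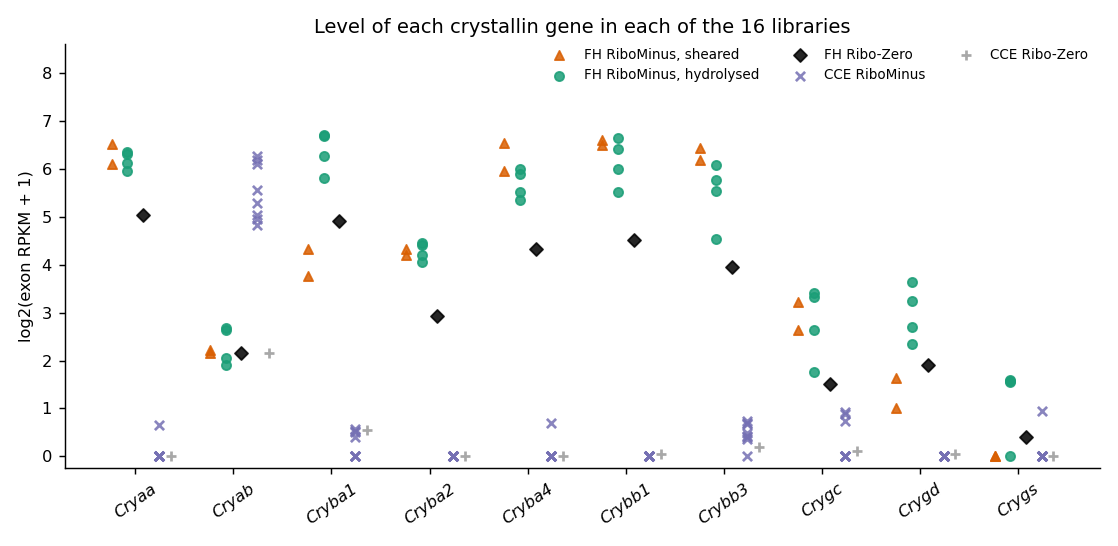
Exon level of each member as log2(RPKM + 1), 1 symbol per library, for FH RiboMinus sheared (2 libraries) and hydrolysed (4), FH Ribo-Zero (1), CCE RiboMinus (8) and CCE Ribo-Zero (1). Cryab is the only member whose CCE RiboMinus libraries lie above its FH libraries, and the sheared FH libraries lie below the hydrolysed ones in Cryba1 and Crygd.

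Among the alpha crystallins, Cryaa (ENSMUSG00000024041.7, chr17:31814878-31818667, mm9), the lens-restricted chaperone, had 60.7 RPKM in the lowest, a median of 73.2 and 90.7 in the highest of the 6 FH RiboMinus libraries, and 74.7 ± 4.12 RPKM over preparations (SD, n = 3). Its level in FH Ribo-Zero was 31.6 RPKM, from 1815 tags. Cryab (chr9:50560863-50564738), the widely expressed alpha crystallin, had 2.77 RPKM in the lowest, a median of 3.58 and 5.40 in the highest FH RiboMinus library, from 4 to 14 tags, and 3.45 RPKM in FH Ribo-Zero. Cryaa was above Cryab in every FH library.

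The beta crystallins made up most of the crystallin signal. Crybb1 (chr5:112684835-112698605) ranged from 44.6 to 98.3 RPKM with a median of 86.9 and had 79.9 ± 12.6 RPKM over preparations (SD, n = 3). Its neighbour Cryba4 (chr5:112675513-112681538), which is transcribed in the opposite direction, ranged from 39.9 to 92.2 RPKM with a median of 59.5 and a mean of 60.1 ± 13.97 (SD, n = 3). Crybb3 (chr5:113504859-113510604) ranged from 22.0 to 84.8 RPKM with a median of 59.8 and a mean of 58.1 ± 17.2 (SD, n = 3). For all 3 genes the lowest library was FH1 hydrolysed from Nijmegen. Cryba1 (chr11:77532117-77538785), which encodes both the A3 and the A1 protein, had the widest spread, from 12.6 to 103 RPKM with a median of 65.4 and a mean of 61.9 ± 40.3 (SD, n = 3). Cryba2 (chr1:74936508-74939717) had the narrowest spread, from 15.7 to 20.8 RPKM with a median of 18.2 and a mean of 18.5 ± 0.432 (SD, n = 3). These SDs rest on summing same-numbered preparations over the locations, and the hydrolysed numbers may be crossed between them (same-numbered deviations from the mean had r = -0.408 in FH and -0.450 in CCE across genes).

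The listed gamma crystallins were low. Crygc (chr1:65118099-65120263) had 3 to 16 tags in the FH RiboMinus libraries and 6.75 ± 0.596 RPKM (SD, n = 3 preparations). Crygd (chr1:65108446-65110026) had 1 to 25 tags and 5.58 ± 3.73 RPKM (SD, n = 3). Crygs (chr16:22805276-22811483), a gamma crystallin best known from the lens after birth, had no tag in 3 of the 6 libraries and 3 in each of the others, which together gave 1.28 RPKM (95% exact Poisson interval 0.586 to 2.43). FH Ribo-Zero, the deepest library, held 11 Crygs tags, or 0.321 RPKM (95% interval 0.160 to 0.574). Intervals from counts cover counting error only.

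The order of the levels depended on which positions were counted and differed between the kits. By exon RPKM in FH RiboMinus it ran Crybb1, Cryaa, Cryba1, Cryba4, Crybb3, Cryba2, Crygc, Crygd, Cryab and Crygs. The ranges over preparations overlapped between neighbours except from Crybb3 to Cryba2, Cryba2 to Crygc and Cryab to Crygs. Over uniquely reached coding positions Crybb3 came first with 207 ± 65.6 RPKM (SD, n = 3), followed by Cryba1 with 149 ± 102, Crybb1 with 120 ± 20.1, Cryba4 with 86.1 ± 18.7 and Cryaa with 85.3 ± 22.4. The merged exons of Crybb3 are 2333 bases, of which 633 are coding in its main transcripts. Those of Cryba1 (1639 bases), Cryba2 (1192) and Crygd (1028) also include non-coding transcripts, while their main coding transcripts are 778, 720 and 613 bases long. The added length lowers the exon RPKM of these genes, and it enters the order by exon RPKM and the class shares. On the same scale Crygc had 20.8 ± 3.12 RPKM and Crygd 20.0 ± 12.8 (SD, n = 3), above their exon values. The 5 upper genes overlapped with their neighbours on both scales. Over uniquely reached coding positions, though, the lowest Crybb3 preparation (164 RPKM) was above the highest of Crybb1 (138), Cryaa (111) and Cryba4 (108). In FH Ribo-Zero the order by exon RPKM was Cryaa, Cryba1, Crybb1, Cryba4, Crybb3, Cryba2, Cryab, Crygd, Crygc and Crygs.

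In CCE the members other than Cryab were at or close to 0. Cryba2, Crybb1 and Crygd had no tag in the 8 CCE RiboMinus libraries, Cryaa, Cryba4 and Crygs had 1, Crygc had 3, Cryba1 5 and Crybb3 12. Against a floor of 3 tags over all CCE RiboMinus libraries, Crygd was at least 28.5-fold, Cryba2 at least 96.0-fold and Crybb1 at least 337-fold higher in FH. For Cryaa the FH to CCE ratio was 1143 (95% exact interval 205 to 45182), with 869 tags against 1. In CCE Ribo-Zero the members with most tags besides Cryab were Cryba1 with 22 and Crybb3 with 10. The intron density of Cryba1 was 66.7% of its exon density in CCE Ribo-Zero, against 1.77% in FH Ribo-Zero. Cryba1 lies within the span of Nufip2, a gene on the other strand. Tags do not tell the strand of the transcript, and the source of the CCE tags of Cryba1 was not tested.

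Cryab went the other way. Its level in the 8 CCE RiboMinus libraries was 27.3 RPKM in the lowest, a median of 41.8 and 76.3 in the highest, from 40 to 198 tags, and 50.2 ± 13.2 RPKM over preparations (SD, n = 4). Every one of them lay above the highest FH library, at 5.40 RPKM. Over all RiboMinus libraries Cryab was 12.4-fold higher in CCE than in FH (95% exact interval 9.27 to 16.97). In the Ribo-Zero libraries, whose RNA was a separate biological sample, the level was 3.47 RPKM in CCE and 3.45 in FH, a ratio of 1.01 (95% interval 0.793 to 1.27). The difference in Cryab was thus seen with the RiboMinus samples and not with the Ribo-Zero samples, and kit and RNA sample cannot be told apart. As background, 19.9% of 10306 protein-coding genes tested were higher in FH with RiboMinus and 34.8% were lower (limma, Benjamini-Hochberg adjusted p under 0.05). As the list was chosen on this contrast, nothing is read from the members' count against these shares.

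Within the FH libraries the beta class held most of the summed level of the 10 genes. Its share of the summed exon RPKM was 77.2% and 74.0% in the sheared libraries, 76.0%, 68.8%, 73.6% and 79.5% in the hydrolysed ones and 69.4% in Ribo-Zero. The alpha share was 16.8% to 26.4% in the RiboMinus libraries and 26.8% in Ribo-Zero. The gamma share was 1.83% and 2.58% in the sheared libraries, 5.10%, 4.82%, 2.90% and 3.72% in the hydrolysed ones and 3.76% in Ribo-Zero. The sheared libraries thus had the lowest gamma shares of all 7.

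The gamma share of the list understates the gamma crystallins of these heads, because the most abundant gamma gene is not in it. Cryga had 70.6 ± 7.27 RPKM in FH (SD, n = 3 preparations), a level like that of Cryaa over its whole exons, and 0.241 ± 0.279 in CCE (SD, n = 4). It was higher in FH than in CCE by 5.87 ± 0.215 on the log2 scale (SE, limma adjusted p = 3.57e-07), but it passed the filter only through FH, which fixed that direction, on the contrast used to choose the list. Of its 730 exon bases, 350 are shared with exons of D630023F18Rik on the same strand. In the RiboMinus libraries of FH the shared bases held 25, 112, 86, 29, 35 and 79 tags and the 380 bases of Cryga alone 16, 29, 37, 18, 13 and 45, in the order FH1 sheared, FH1 hydrolysed and FH2 hydrolysed from Vienna and then from Nijmegen. The FH Ribo-Zero library held 356 and 243. The shared bases held more tags in every one of them, and tags there cannot be assigned to either gene. With the 6 lens crystallin genes that the list leaves out (Crybb2, Cryga, Crygb, Cryge, Crygf and Crygn), the gamma share was 19.8% to 29.2% in the RiboMinus libraries and 21.8% in Ribo-Zero, of which Cryga alone made 10.5% to 17.7%. Crybb2, the major beta crystallin of the adult lens, had 2 tags in all FH RiboMinus libraries and none in FH Ribo-Zero.

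**Figure D3:**
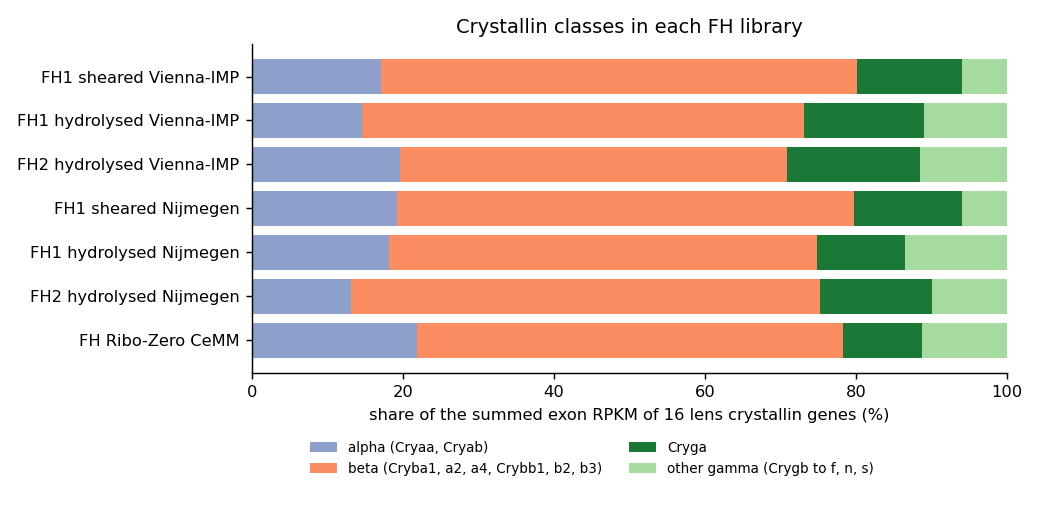
Share (%) of the summed exon RPKM of 16 lens crystallin genes taken by the alpha, beta and gamma genes, with Cryga apart, in each of 7 FH libraries. The beta genes hold more than the other classes in every library, and the gamma genes other than Cryga hold least in the 2 sheared libraries.

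Fragmentation of the RNA or cDNA was a contrast that the list did not use. Of the 9 members that passed the filter (mean RPKM over 3 in at least 1 class of tissue and fragmentation; Crygs did not), 2 were higher in hydrolysed than in sheared FH preparations, Cryba1 and Crygd, and 1 was lower, Crybb3 (limma, adjusted p under 0.05). Of all 10958 genes tested 14.4% were higher and 11.8% lower, so the number of members called is close to the background. The sheared side is 1 preparation, which is assumed to vary like the preparations of the other classes, and on simulated data this contrast made more false calls than its threshold states. The fit did not pair FH1 sheared with FH1 hydrolysed, though both came from the same depleted RNA. Its hydrolysed side joined FH1 with FH2, which had 2 rounds of depletion, so that rounds enter the contrast. Crygd passed the filter only through the hydrolysed preparations. The median difference was 0.000676 on the log2 scale over the 9 members and 0.038 over all genes tested.

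Cryba1 showed the largest of these differences. It had 18.9 and 12.6 RPKM in the sheared libraries and 102, 54.9, 76.0 and 103 RPKM in the hydrolysed ones, in the order FH1 Vienna, FH2 Vienna, FH1 Nijmegen and FH2 Nijmegen. Both sheared libraries lay below the lowest hydrolysed one. The difference was 2.35 ± 0.211 on the log2 scale (SE, limma adjusted p = 0.00502), and 0.173% of genes tested had a difference at least as high. It was not called from the Vienna libraries alone (1.93, limma adjusted p = 0.106) or without the FH1 hydrolysed preparation (2.24, limma adjusted p = 0.0621), and adjusted p ranged from 0.000585 to 0.106 over its 15 alternatives.

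The low level of Cryba1 in the sheared libraries was seen in several exons. Exon 2 had 35.3 RPKM over uniquely reached positions in the sheared libraries, from 2 tags, and 66.4 in the hydrolysed ones. Its exons 3 to 6 had 20.5, 49.5, 24.5 and 50.5 RPKM over uniquely reached positions in the sheared libraries, against 130, 207, 220 and 246 in the hydrolysed ones. In FH Ribo-Zero, which was also hydrolysed, they had 39.3, 113, 75.5 and 82.5 RPKM. For comparison, the 4 exons of Cryaa had 73.9, 31.1, 48.1 and 101 RPKM in the sheared libraries and 82.4, 18.3, 72.1 and 85.1 in the hydrolysed ones.

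**Figure D4:**
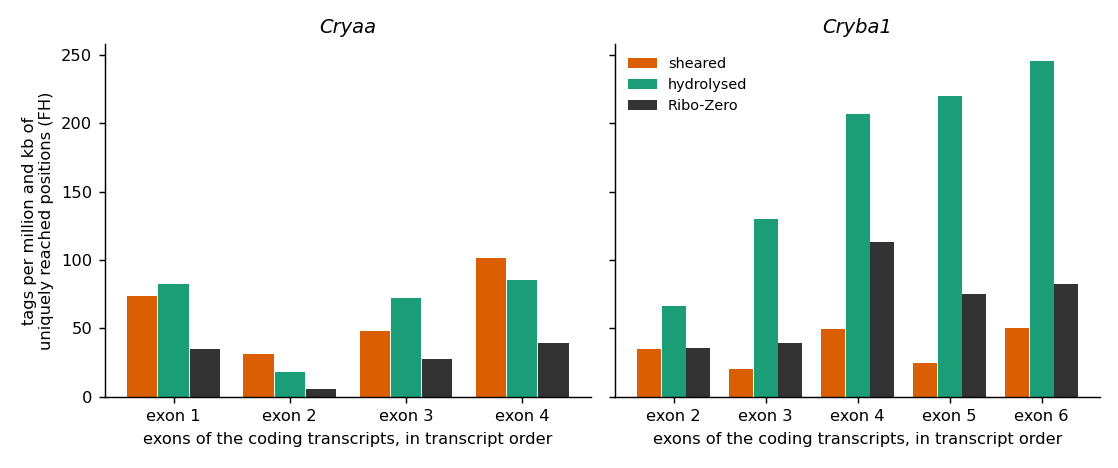
Level of each exon of Cryaa and Cryba1 in FH as RPKM over uniquely reached positions, for summed sheared RiboMinus (2 libraries), summed hydrolysed RiboMinus (4) and Ribo-Zero (1). Exon 1 of Cryba1 is shorter than a tag and is not drawn, and exons 3 to 6 of Cryba1 are lower in sheared than in hydrolysed libraries by more than those of Cryaa.

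Crygd had 1 and 2 tags in the sheared libraries and 25, 19, 9 and 9 in the hydrolysed ones, a difference of 1.74 ± 0.209 on the log2 scale (SE, limma adjusted p = 0.00832). The groups did not overlap, but the sheared side rests on 3 tags and the filter fixed the direction. The 25 tags came from FH1 hydrolysed in Vienna, the lane that the paper takes as a likely outlier. From the Nijmegen libraries alone the difference was not called (0.885, limma adjusted p = 0.0821). Crygb, its relative outside the list, also rose in hydrolysed preparations, by 1.95 ± 0.173 (SE). Its sheared side rests on 5 tags, from the same sheared preparation. Crygc gave 5.26 and 8.29 RPKM in the sheared libraries and 9.02, 5.23, 2.39 and 9.54 in the hydrolysed ones, with no difference called (0.000676 ± 0.221, SE, limma adjusted p = 1).

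Crybb3 had 71.3 and 84.8 RPKM in the sheared libraries and 66.0, 45.04, 22.0 and 53.6 in the hydrolysed ones, all of them below the sheared. Its difference was -0.68 ± 0.179 on the log2 scale (SE, limma adjusted p = 0.0335), and the call held in 4 of 15 alternatives. Cryba4 (-0.54 ± 0.235, SE, limma adjusted p = 0.123) and Crybb1 (-0.33 ± 0.192, SE, limma adjusted p = 0.228) were not called. Cryaa, Cryab and Cryba2 differed by -0.12, 0.19 and 0.029.

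Base composition moved with these differences. Over the 10958 genes the hydrolysed minus sheared difference fell with the GC content of the exons, from a median of 0.68 in genes under 42% GC to -0.85 in genes of 60% or more (Pearson r = -0.62 across genes, which share their libraries). Cryba1 had 43.9% GC, the lowest of the 10 members, and the others 52.1% to 60.9%. Against the median of genes of like GC content, Cryba1 was still higher by 1.82 and Crygd by 1.77, with 0.253% and 0.553% of such genes at least as high, while Crybb3 was lower by 0.116. These GC values are of merged exons, which in Cryba1 and Crygd include a transcript with a retained intron. Over coding bases Cryba1 had 49.5% GC and Crygd 59.2%, which would place both in another GC class. The comparison was not repeated on coding bases. The part of base composition in these results was not tested further. With 1 sheared preparation, fragmentation and preparation cannot be told apart in FH.

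**Figure D5:**
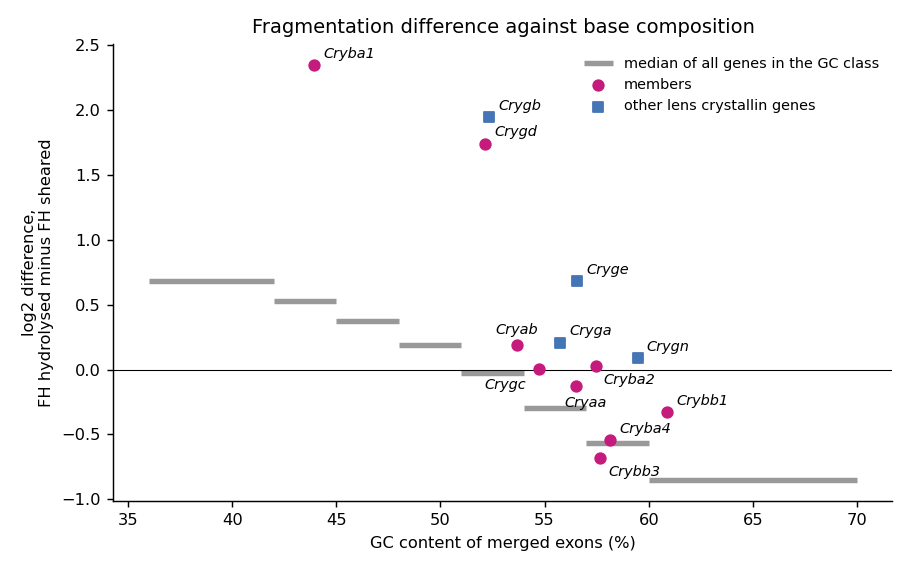
Difference between hydrolysed and sheared FH preparations on the log2 scale against the GC content of the merged exons (%), for 9 members (pink) and 4 other lens crystallin genes (blue). Grey bars are the medians of all genes tested in each GC class, and the outer bars stand for under 42% and 60% or more. Cryba1 (2.35), Crygb (1.95) and Crygd (1.74) lie far above the bar of their class.

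The summed level of the 10 genes overlapped between the methods. It was 341 and 403 RPKM in the sheared libraries and 442, 324, 271 and 420 in the hydrolysed ones, which gave 372 ± 43.5 (SD, n = 2) and 364 ± 80.4 (SD, n = 4) and overlapped (exact two-sided permutation test, p = 1, where the smallest possible p was 0.133). These libraries are repeat runs of 1 sheared and 2 hydrolysed preparations, so that this n exceeds the number of separate samples. With repeated positions counted once the hydrolysed minus sheared difference was -121 RPKM and the groups did not overlap (exact permutation p = 0.133). That count depends on depth, and for Cryba1 it kept 48 of 49 tags in FH1 sheared and 330 of 554 in FH1 hydrolysed. The hydrolysed preparations did not keep their order between locations. FH1 had a higher sum than FH2 in Vienna and a lower one in Nijmegen. The highest sum, 442 RPKM, came from FH1 hydrolysed in Vienna, the lane that the paper takes as a likely outlier. The negative correlation of same-numbered preparations was over 10334 genes.

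Ribo-Zero gave lower crystallin levels than RiboMinus in FH. Of the 9 members that passed the filter (RPKM over 3 with either kit), 8 were over 2-fold lower in the Ribo-Zero library than in the summed hydrolysed RiboMinus libraries, all but Cryab, on the log2(RPKM + 1) scale. Among all 10046 genes compared 27.4% were. Crygc and Crygd passed this filter only through RiboMinus, so that it fixed their direction. The ratio was 0.435 for Cryaa (95% exact interval 0.399 to 0.476), 0.343 for Cryba1 (0.319 to 0.369), 0.293 for Crybb1 (0.264 to 0.324) and 0.299 for Crybb3 (0.276 to 0.325), and 0.821 for Cryab (0.582 to 1.18). The median log2 ratio was -1.39 over the members, -0.45 over all genes and -0.98 over the 874 genes with under 1300 bases of exon, as 8 of the 10 members have. Kit, RNA sample, location and read length differed together and cannot be told apart, and with 1 Ribo-Zero library there is no test. The totals are also unlike, since that of FH Ribo-Zero includes 2200005 mitochondrial tags and those of RiboMinus include 0. Scaled by exon tags of protein-coding genes, Cryaa had 74.5 RPKM in Ribo-Zero, against 138 and 140 in the FH1 and FH2 hydrolysed preparations. Cryab had 8.13 against 8.42 and 7.75, and the other members were lower in Ribo-Zero on this scale too.

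Tags of the members lay in exons. Intron density was 0.378% to 4.59% of exon density in FH RiboMinus for the 9 members other than Crygs, which had 9 exon tags and 0 intron tags there. The insert exon of Cryaa (chr17:31815394-31815462, mm9, plus strand), which is included in the longer of the 2 coding transcripts and is known from rodents, was covered below its neighbours in hydrolysed libraries. It is printed because its 69 bases separate the transcripts.
Cryaa insert exon: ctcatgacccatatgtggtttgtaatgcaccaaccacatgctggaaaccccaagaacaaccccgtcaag

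Over uniquely reached positions the insert exon had 23.0% of the density of the exons beside it in hydrolysed FH libraries (95% exact interval 7.39 to 54.6, from 5 tags) and 16.5% in FH Ribo-Zero (5.33 to 38.8, from 5 tags). In sheared FH libraries it had 46.8% from 2 tags, with an interval of 5.47 to 181 that does not separate it from its neighbours.

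The other small heat shock proteins, the family of Cryab, were compared by tissue. Of 7 listed genes 4 passed the filter of the tissue comparison, and 2 were higher and 2 lower in FH (limma; 19.9% and 34.8% of all genes tested), with a median of -1.19 against -0.34 over all 10306 genes. Hspb2, whose gene lies head to head with Cryab, had 13.2 ± 1.31 RPKM in FH (SD, n = 3) and 6.89 ± 2.15 in CCE (SD, n = 4) and was higher in FH by 0.89 ± 0.237 (SE, limma adjusted p = 0.0118). This call was lost from Nijmegen alone (0.58, limma adjusted p = 0.155) and without FH2 hydrolysed (0.82, limma adjusted p = 0.0502). Hspb8, a chaperone of muscle and heart, was lower by 3.80 on the log2 scale, with 10.6 ± 1.90 RPKM in FH and 162 ± 37.0 in CCE (limma adjusted p = 1.97e-06). Hspb1 was at 0.174 ± 0.302 RPKM in FH and 9.31 ± 2.76 in CCE (limma adjusted p = 1.16e-05). Hspb1 passed the filter only through CCE and Hspb6 only through FH, so that the filter fixed their direction.

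The remaining genes named crystallin were mostly low over whole exons. Of the 13 in the list of other crystallin genes 8 passed the filter, 5 were higher and 1 was lower in FH, with a median of 2.50, where 19.9% of all genes tested were higher and 34.8% lower. Crygb (14.3 ± 8.73 RPKM in FH, SD, n = 3, and 0 in every CCE library), Crygn (10.4 ± 0.996), Cryge (4.60 ± 1.93) and Crym (5.86 ± 0.226), a thyroid hormone binding protein of brain, were higher in FH besides Cryga, and all 5 passed the filter only through FH, so that neither this count nor the median is independent of the filter. Cryz, a quinone reductase that passed the filter only through CCE, was lower by 0.816 on the log2 scale (limma adjusted p = 0.00876), a call lost from Nijmegen alone (limma adjusted p = 0.0571) and with scaling by exon tags (-0.60, limma adjusted p = 0.0756). Cryl1 and Cryzl1 were not called, with 4.47 and 3.40 RPKM in FH against 3.12 and 4.34 in CCE. Crygf (2.45 RPKM in FH), Aim1 (0.800), Aim1l (0.584) and Crybg3 (0.666) did not pass the filter. Over uniquely reached exon positions Cryge had 29.5 ± 17.6 RPKM and Crygf 5.07 ± 6.59 in FH (SD, n = 3), above their whole-exon values.

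Other lens genes were checked beside the crystallins. Of 12 lens fibre cell proteins 2 passed the filter of the tissue comparison, Mip and Gja3, both only through FH, so that the filter fixed their direction. Mip, the water channel of fibre cells, had 19.2 ± 3.30 RPKM in FH (SD, n = 3) and 0.239 ± 0.0916 in CCE (SD, n = 4), a log2 difference of 4.02 ± 0.173 (SE, limma adjusted p = 5.76e-07). Gja3, a connexin, had 4.02 ± 0.770 and 0.650 ± 0.581 RPKM, a difference of 1.67 ± 0.288 (SE, limma adjusted p = 0.00121). Bfsp1 (1.82 RPKM) and Lim2 (1.57) were detected in FH below the filter, and Bfsp2, a beaded filament protein, had 1.05 RPKM in FH and 1.23 in CCE, which does not mark the lens in these libraries. Tdrd7 (2.39 RPKM in FH and 2.58 in CCE) and Caprin2 (1.67 and 1.64) had like levels in both tissues, Birc7 had 0 in FH and 1.62 in CCE, and Lgsn had 0 in both. Of 16 lens regulators 14 were analysed and 9 passed the filter, of which 6 were higher and 1 lower in FH, with a median of 0.943, where 19.9% of all genes tested were higher and 34.8% lower. Mab21l1 was higher by 3.81 (limma adjusted p = 7.55e-07) and Pitx3 by 1.93 (limma adjusted p = 0.00649, from 4.10 ± 4.35 RPKM in FH, SD, n = 3), and Meis1 was lower by 1.70 (limma adjusted p = 0.00519). Mab21l1 and Pitx3 passed the filter only through FH, which fixed their direction, and without the FH1 sheared preparation Pitx3 did not pass the filter. Gata3 (5.21 RPKM in FH and 6.78 in CCE) and Meis2 (9.84 and 12.8) were not called. Of the regulators and fibre cell proteins together, 8 of 11 tested were higher in FH, and 4 without the FH1 sheared preparation. Many of these regulators are also active outside the lens. Foxe3, which is restricted to the lens in the eye, had 1.16 ± 1.81 RPKM in FH (SD, n = 3) and none in CCE. In the fragmentation fit Foxe3 passed the filter only through the FH sheared preparation, which fixed its direction. Of the markers that are no crystallins, Mip had 19.2 RPKM in FH, and Bfsp1, Lim2 and Foxe3 were low.

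Genes of other parts of the eye were mostly low. Of 6 retina genes 2 passed the filter, Atoh7 (18.3 ± 4.50 RPKM in FH, SD, n = 3, and 0 in CCE) and Pou4f2 (3.16 ± 1.14 and 0.146 ± 0.0627), both only through FH, so that the filter fixed their direction. Crx, a retina gene that did not pass, had 0.129 RPKM in FH. Their median was 3.04, or 3.45 with Atoh7 at its bound against 3 tags. Of 6 pigment epithelium genes only Rlbp1 passed (4.68 ± 1.22 in FH, log2 difference 2.17, limma adjusted p = 1.96e-05), again only through FH, while the other 5 had 0 (Rpe65) to 0.734 RPKM (Tyrp1) in FH, and none of 2 cornea genes did, with Krt12 at 0.184 and Aldh3a1 at 0.0397 RPKM in FH.

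The genes whose levels were most like the mean of the members over the 16 libraries were Mapk10, Syp, Actl6b, Nxph1 and Dpp6, of 8950 genes compared (Pearson r = 0.995 to 0.996 of log2(RPKM + 1)). These are genes of neurons, with 4.58 to 24.96 RPKM in FH and 0 to 0.491 in CCE, and the likeness describes the split between the tissues that all of the libraries share. Of the members Crybb1 (r = 0.992), Cryaa (0.991) and Cryba2 (0.994) followed their own mean closely, Crygs less (0.593), and Cryab had r = -0.797.

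Promoters of the members were searched as a description. The pattern that most members shared over the libraries is the tissue split on which the list was chosen. RefSeq (GRCm38.p6) gave promoters for 9 of the 10 members, and Cryab was not matched. The short site TGCTGA, to which large MAF proteins such as the lens regulator c-Maf are known to bind, was present on either strand within 250 bases before the start of 8 of the 9, all but Crygd, against 15.8% of 27025 promoters. Of 15 lens crystallin genes with a promoter 10 had it. The letters TATAAA were present in 3 of the 9, against 13.0% of all promoters. CTATATA, chosen after the sequences were seen, was present in Cryaa, Crygc and Crygd and in 1.86% of all promoters. The 120 bases before the start are shown for 4 of the 5 members with a TGCTGA in that stretch (Crybb3 is the other) and for Crygd, with matches in capitals.
Cryaa, chr17:31677811-31677930, plus strand: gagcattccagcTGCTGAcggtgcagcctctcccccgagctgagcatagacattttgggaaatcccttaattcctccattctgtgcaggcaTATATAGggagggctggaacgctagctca
Cryba1, chr11:77725294-77725413, minus strand: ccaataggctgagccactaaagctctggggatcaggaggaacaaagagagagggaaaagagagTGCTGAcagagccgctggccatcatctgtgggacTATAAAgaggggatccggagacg
Cryba4, chr5:112252519-112252638, minus strand: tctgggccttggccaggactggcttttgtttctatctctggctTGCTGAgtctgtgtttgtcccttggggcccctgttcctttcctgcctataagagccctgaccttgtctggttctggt
Crybb1, chr5:112255700-112255819, plus strand: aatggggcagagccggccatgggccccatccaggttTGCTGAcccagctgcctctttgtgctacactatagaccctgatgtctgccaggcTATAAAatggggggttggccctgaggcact
Crygd, chr1:65063441-65063560, minus strand: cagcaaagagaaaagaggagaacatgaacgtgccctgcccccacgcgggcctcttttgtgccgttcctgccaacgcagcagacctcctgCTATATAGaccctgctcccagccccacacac

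The nearest TGCTGA began 57 bases before the start in Cryba1, 77 in Cryba4, 84 in Crybb1 and 108 in Cryaa, and TATAAA began 23 bases before it in Cryba1 and 30 in Crybb1. Matches are letters in a window and no factor was measured on these promoters.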

How the data were processed

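The 16 deposited BED files held 1 line for each tag that the authors had mapped to a single place in mm9 with Bowtie, per the submitters' processing notes. The deposited score column was constant and was not used, and the files gave no counts per gene. Tag midpoints were therefore counted here in merged exons and introns of GENCODE M1 protein-coding genes and given as RPKM, scaled to exon length and unique tags. Tags of both locations were summed within each of the 7 RiboMinus cDNA preparations, whose numbers come from the study's sample titles and methods. Lanes beyond these and combined samples were not analysed here. Genes were counted without strand, as the tags do not tell the strand of the transcript. Repeated positions were tags with the same start and the same strand.

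Tests used limma 3.58.1 in R 4.3.3 with a trended variance on log2(RPKM + 1), keeping genes whose mean RPKM exceeded 3 in some class, with Benjamini-Hochberg adjustment over all genes tested and a threshold of 0.05. On this scale the change of low genes is understated. The summed level was compared with an exact permutation test in scipy 1.17.1, with Python 3.11.15, pandas 2.3.3, numpy 2.4.6 and matplotlib 3.10.9 for counting and figures. Intervals are exact at 95% and, like the floor of 3 tags, cover counting error only, since molecules were not marked. The limma steps were tested on simulated data.

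The members and gene lists were chosen with earlier results of these data known. Named were all members, the genes of the lists that passed the tissue test with the largest 3 differences or a decrease, other crystallin genes with at least 10 FH tags, and the genes most like the members. The lens and eye marker genes below the filter, Hspb1, Crybb2, Aim1, Aim1l and Crybg3 are given to account for their lists, and 3 listed genes are not reported here. Uniqueness of coding windows was computed on NCBIM37 with up to 2 mismatches for 36-base tags. Alternatives covered location, pseudocount, filter, repeated positions, scaling, covariates, pairing and left-out preparations.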

Additional observations from a re-analysis of the deposited data

How the results depend on the processing

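Alternatives not planned from the outset (coding or uniquely reached coding positions, added or left-out genes for sums and shares, the other pairing of locations, depth weights, and left-out preparations for shares) were chosen after seeing the data. The count of lens regulators and fibre cell proteins higher in FH was 8, 13 with no filter on low values, and 4 to 8 when 1 preparation was left out, with 4 without FH1 sheared. With the title number as a replicate block it was also 8, and the numbers did not pair the preparations (r = -0.612 to 0.502 between same-numbered ones). The count of members that differed by fragmentation was 3, but 1 from Vienna alone, 1 from Nijmegen alone and 1 to 4 when a preparation was left out, with 1 without FH1 hydrolysed. The summed member level, 370.4 RPKM, was 367 with repeated positions counted once, 450 over uniquely reached exon positions, 695 scaled by exon tags, 584 over coding regions and 732 over uniquely reached coding positions. The beta share, 75.2%, was 73.3%, 75.7% and 81.6% under the first, the second and the last of these, 76.0% without Cryab and 59.0% with the 6 genes added. The ratio of the summed member level in FH Ribo-Zero to that in hydrolysed FH RiboMinus was 0.354. It was 0.263 with repeated positions counted once and 0.370 over uniquely reached coding positions. The summed fragmentation difference was -121 RPKM with repeated positions counted once (exact permutation p = 0.133, the smallest possible). Counting repeated positions once depends on depth. Signs reversed, all without a call, for Cryzl1 by tissue (0.065, Nijmegen alone), and by fragmentation for Cryaa (0.22, Vienna alone), Cryab (-0.24, Nijmegen alone), Cryba2 (-0.0097, Nijmegen alone, and -0.13 with repeated positions counted once) and Crygc. The Crygc values were -0.15 with 14 libraries, -0.64 from Nijmegen alone, -0.20 with repeated positions counted once, -0.11 without FH2 hydrolysed and -0.105 with the other pairing. The causes were not tested. Depth limits Crygs, Crygc, Crygd and Cryab in FH RiboMinus, with 9 to 65 tags in all.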
